A study of Mus musculus with 26 samples.

Results

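The genes described here encode members of the protein families that coat, fuse and bud off lipid droplets. They are the 5 perilipins (Plin1, Plin2, Plin3, Plin4 and Plin5), the 3 Cide genes (Cidea, Cideb and Cidec) and both Fitm genes (Fitm1 and Fitm2). They were chosen by gene family, from the list of perilipin, Cide and Fitm symbols, and are 10 of the 50686 genes in the count table. Each of the 10 was matched to 1 entry of the table.

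RNA-sequencing was carried out on brown adipose tissue (BAT), labelled as supraclavicular, from 26 male C57BL/6J mice in 4 groups, with 1 library per mouse. Control littermates (labelled WT) and fat-specific Afadin knockout (FAKO, labelled KO) mice, in which Adiponectin-Cre is combined with floxed Mllt4, were 12 to 16 weeks old and were held for 2 weeks at thermoneutrality. The temperature of that housing is 30 °C in the sample labels and 29 °C in the study's methods. Part of each genotype was then moved to 5 °C for 6 h. This gave 7 control mice and 7 mice labelled FAKO at thermoneutrality, and 5 control mice and 7 mice labelled FAKO in the cold. Adiponectin-Cre acts in adipocytes of every fat depot and not in the other cells of BAT, so the tissue of a FAKO mouse still holds cells with an intact gene.

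A lipid droplet is a store of triglyceride wrapped in a phospholipid monolayer, and perilipins bind to that surface and govern which lipases reach the fat. CIDE proteins gather where droplets touch and move lipid from the smaller to the larger droplet, while FITM proteins sit in the endoplasmic reticulum and help new droplets to bud. In brown fat, cold sets off lipolysis through β-adrenergic signalling, and the many small droplets of the brown adipocyte are then both consumed and rebuilt.

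Total counts per mouse ran from 12705969 to 25732258, and TMM factors, which correct for composition, ran from 0.759 to 1.29. Values below are normalized counts, scaled to the size of each library and its TMM factor (CPM). Afdn, the gene for Afadin, had a mean of 196 CPM ± 21.0 (SD, n = 7) in control mice and 195 ± 27.4 (SD, n = 7) in mice labelled FAKO at thermoneutrality. Since Afdn was not lower there, these animals are called mice labelled FAKO throughout. In the cold it was 73.5 ± 4.27 (SD, n = 5) in control mice and 58.5 ± 4.15 (SD, n = 7) in mice labelled FAKO, a difference of -0.33 on the log2 scale (SE 0.09). Its adjusted p was 0.116 in the quasi-likelihood test of edgeR with the Benjamini-Hochberg method, as are all adjusted p-values below. Markers of adipocytes and brown adipocytes were present in all 26 mice apart from Elovl3, which was at 0 in 1 mouse. Skeletal muscle markers ranged from 2.45 to 9712 summed CPM between mice. Control mouse 7 at thermoneutrality had the highest TMM factor and the second highest muscle sum, 6689 CPM, and stood apart from its group, so results that change without it are given both ways.

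Plin2, Fitm2 and Plin3 changed most in the cold, and their promoters are shown for that reason. Each is the 250 bases before RefSeq's transcription start on GRCm38.p6, printed 5′ to 3′ on the gene's own strand, and all 3 genes lie on the minus strand. Plin2 is at chr4:86670060-86670309, Fitm2 at chr2:163472630-163472879 and Plin3 at chr17:56290512-56290761, which is inside the gene as GENCODE draws it. Capitals mark the motif matches described in the next paragraph.
Plin2: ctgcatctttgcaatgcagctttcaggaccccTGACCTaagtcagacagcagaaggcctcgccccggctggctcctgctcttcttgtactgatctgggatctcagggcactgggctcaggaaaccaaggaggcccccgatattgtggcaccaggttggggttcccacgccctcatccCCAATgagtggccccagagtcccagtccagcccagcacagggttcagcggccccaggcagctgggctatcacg
Fitm2: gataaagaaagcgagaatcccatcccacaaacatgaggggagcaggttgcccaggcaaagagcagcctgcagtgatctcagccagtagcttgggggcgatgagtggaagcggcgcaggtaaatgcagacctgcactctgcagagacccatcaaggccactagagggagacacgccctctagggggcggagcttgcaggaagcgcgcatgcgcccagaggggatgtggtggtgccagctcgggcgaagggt
Plin3: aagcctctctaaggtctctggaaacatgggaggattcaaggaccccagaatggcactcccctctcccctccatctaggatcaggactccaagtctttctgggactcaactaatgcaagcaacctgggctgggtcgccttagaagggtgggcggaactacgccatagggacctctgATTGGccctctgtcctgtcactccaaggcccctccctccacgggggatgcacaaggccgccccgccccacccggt

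The promoters were searched on both strands for 8 motifs. For cyclic AMP signalling these were the response element TGACGTCA and its half-site TGACG. For nuclear receptors they were the half-site AGGTCA, its direct repeat with 1 base between the copies, and the estrogen-related receptor element TCAAGGTCA. The general promoter elements were the CCAAT box, the E-box with the letters CACGTG, and the TATA box with the letters TATAAA. A match to TGACGTCA also holds TGACG, and a match to either of the longer nuclear receptor elements also holds AGGTCA. Plin2 held AGGTCA on the opposite strand from base -218 and CCAAT from base -73, counted from the start site. Plin3 held CCAAT on the opposite strand from base -75, and Fitm2 held none of the 8. Among the genes not printed, Plin5 held AGGTCA from base -170 and also CCAAT. Plin4 held CCAAT, Fitm1 TGACG and Cideb TATAAA, and Plin1 and Cidec held none of the 8. Of all 32851 promoters of this length, 14.0% hold AGGTCA, 33.8% CCAAT, 17.8% TGACG, 12.4% TATAAA and 6.02% CACGTG. TGACGTCA is in 1.55% of them, TCAAGGTCA in 0.387% and the direct repeat in 0.0335%. The matches describe the letters only. Of the 10 genes, 9 had a promoter in the RefSeq table, and Cidea did not.

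In control mice, Plin2 and Fitm2 rose and Plin3 fell in the cold without overlap between the groups, and Plin5 and Plin1 rose less. Of the 10 genes, 5 passed the test, 4 higher and 1 lower, where 65% of all 17286 genes tested passed (31.6% higher and 33.4% lower). Of the 10, 7 passed in mice labelled FAKO, 6 higher and 1 lower, where 68.6% of genes passed (33.7% higher and 34.9% lower). Both counts are near what these shares of all genes would give for 10 genes. Among the 10, Plin2, Plin3 and Fitm2 had the largest changes in both genotypes. All 10 passed the filter on low counts. With library size alone as the scaling, the split of all calls in mice labelled FAKO went from 5825 higher and 6035 lower to 3223 higher and 8384 lower, and 3 of the 10 genes were called higher and 2 lower.

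**Figure D1:**
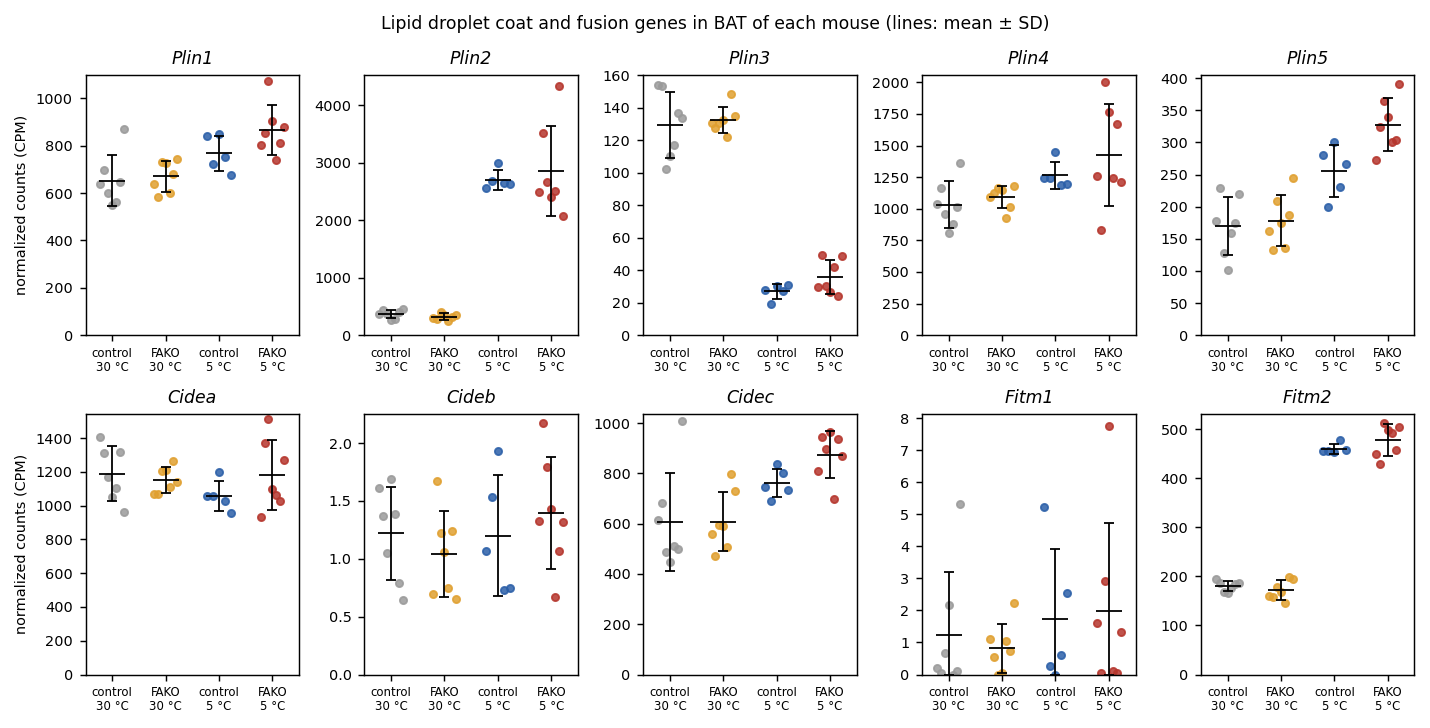
Normalized counts (CPM, linear axes from 0) of the 10 genes in each of the 26 mice, by group; 1 point per mouse, black lines show the mean ± SD, and a lower bar that would pass 0 ends at 0. The 2 cold groups lie above both thermoneutral groups for Plin2 and Fitm2 and below them for Plin3, with no overlap, while Cidea, Cideb and Fitm1 overlap throughout.

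Perilipin 2 is the coat found on droplets of nearly all cells, and it is degraded when not bound to lipid. The gene (ENSMUSG00000028494.12) spans 86648386 to 86670060 of chromosome 4 (mm10). In control mice at thermoneutrality Plin2 ran from 260.1 to 450.1 CPM, with a median of 374. The 5 control mice in the cold had 2552, 2672, 3002, 2640.2 and 2631. The mice labelled FAKO ran from 252 to 410.3 (median 315) at thermoneutrality and from 2076 to 4327 (median 2510.0) in the cold. No cold mouse was near any thermoneutral mouse, and the cold group labelled FAKO was spread more widely than the cold control group, with a coefficient of variation of 27.5% against 6.48%. Plin2 rose 7.35-fold in control mice (log2 fold change 2.88, SE 0.16, adjusted p = 1.95e-14) and 8.79-fold in mice labelled FAKO (3.14, SE 0.15, adjusted p = 1.52e-15).

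Perilipin 3 is a coat that moves between the cytosol and small new droplets. The gene (ENSMUSG00000024197.9) spans 56277476 to 56292873 of chromosome 17. Plin3 ran from 102 to 154 CPM (median 134) in control mice at thermoneutrality, and the 5 control mice in the cold had 27.6, 19.4, 30.0, 27.2 and 30.8. Among mice labelled FAKO it ran from 122 to 149 (median 131) at thermoneutrality and from 24.1 to 49.6 (median 30.5) in the cold. Every cold mouse was below every thermoneutral mouse. Plin3 was 4.79-fold lower in control mice in the cold (log2 fold change -2.26, SE 0.16, adjusted p = 3.86e-12). It was 3.69-fold lower in mice labelled FAKO (-1.88, SE 0.14, adjusted p = 6.60e-12). With all mice and TMM factors, it was the only 1 of the 10 genes called lower in either comparison.

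Perilipin 5 is the coat of oxidative tissues and tethers droplets to mitochondria. Plin5 ran from 101 to 229.6 CPM (median 174) in control mice at thermoneutrality, and the 5 control mice in the cold had 281, 199.9, 301, 231 and 267. Control mouse 17, at 199.9, lay inside the thermoneutral range and the other 4 above it. The range in mice labelled FAKO was 133 to 244 (median 175) at thermoneutrality and 272 to 391 (median 324) in the cold, with every cold mouse above every thermoneutral one. Plin5 rose in control mice (log2 fold change 0.59, SE 0.16, adjusted p = 0.00264) and in mice labelled FAKO (0.88, SE 0.15, adjusted p = 1.25e-05).

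Perilipin 1 is the adipocyte coat that holds Abhd5, the activator of adipose triglyceride lipase, until it is phosphorylated, and perilipin 4 is an adipocyte coat of small droplets. Plin1 ran from 552 to 870.2 CPM (median 639) in control mice at thermoneutrality, and the 5 control mice in the cold had 841, 725, 847, 752 and 678. At thermoneutrality the mice labelled FAKO had 583 to 742 CPM of Plin1 (median 682), and in the cold 740.0 to 1074 (median 854). The highest thermoneutral control mouse, mouse 7, was above all 5 cold control mice, and the other 6 were at or below 697, so the groups overlapped. Plin1 rose in control mice (log2 fold change 0.24, SE 0.10, adjusted p = 0.0414) and in mice labelled FAKO (0.37, SE 0.09, adjusted p = 0.00102). The call in control mice was lost in 6 of the 9 other settings, with log2 fold changes of 0.09 with library size alone, 0.13 with upper-quartile factors and 0.19 to 0.23 in the other 4. It was also lost in 8 of the 12 fits without 1 mouse (mouse 1, 3, 4, 5, 6, 16, 18 or 19), at 0.20 to 0.25. In mice labelled FAKO it was lost with library size alone (0.04, adjusted p = 0.748).

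Plin4 ran from 806 to 1364 CPM (median 1015) in control mice at thermoneutrality and was 1239.9, 1245, 1447, 1189 and 1195 in the 5 control mice in the cold. Plin4 in mice labelled FAKO ran from 929.7 to 1177 (median 1128) at thermoneutrality and from 832 to 2001 (median 1257) in the cold. The groups overlapped in both genotypes. Within the cold group labelled FAKO, mouse 23 had the second lowest Plin4 of all 26 mice and mouse 24 the highest. The log2 fold change was 0.29 (SE 0.15, adjusted p = 0.0879) in control mice and 0.38 (SE 0.14, adjusted p = 0.0148) in mice labelled FAKO. The call in mice labelled FAKO was lost without mouse 24, with a log2 fold change of 0.28, and in 3 of the 9 other settings. These were library size alone (0.04), upper-quartile factors (0.22) and the fit to only the groups compared (0.34).

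Plin4 and Plin5 are neighbours on chromosome 17 of mm10, with 1797 bases between them, and Plin3 follows 159879 bases after Plin5. Plin3 fell in both genotypes while Plin5 rose in both. Plin4 shares 17 exonic bases with Hdgfl2 on the opposite strand.

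To compare perilipins with each other, CPM was divided by the length of each gene's exons, as CPM per kb. At thermoneutrality the summed perilipin level ran from 409.9 to 692 CPM per kb in control mice and from 459 to 618 in mice labelled FAKO. In the cold it ran from 1233 to 1439.6 and from 1189.9 to 1848, above every thermoneutral mouse. Plin2 supplied 19.3% ± 1.62 (SD, n = 7) of that sum in control mice at thermoneutrality and 60.0% ± 1.62 (SD, n = 5) in the cold. Its share in mice labelled FAKO went from 16.8% ± 1.19 (SD, n = 7) to 56.9% ± 7.48 (SD, n = 7).

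The mean shares of the other 4 perilipins were lower in the cold. In control mice Plin4 went from 33.2% to 17.0%, Plin1 from 26.1% to 12.9%, Plin5 from 14.9% to 9.55% and Plin3 from 6.41% to 0.556%. These shares are parts of a whole that grew, so the share of Plin1 or Plin5 could be smaller while its CPM was higher. In the cold group labelled FAKO the share of Plin2 spanned 49.7% to 66.8%, against 57.5% to 61.7% in the cold control group. The order within a group depended on the length used: at thermoneutrality Plin4 led with exon length, and with the longest transcript Plin1 led at 32.0% in control mice. The share of Plin2 in the control group was 26.7% at thermoneutrality and 69.5% in the cold with that length, and 35.3% and 77.8% with the mean transcript length, where Plin4 was 14.9% at thermoneutrality.

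**Figure D2:**
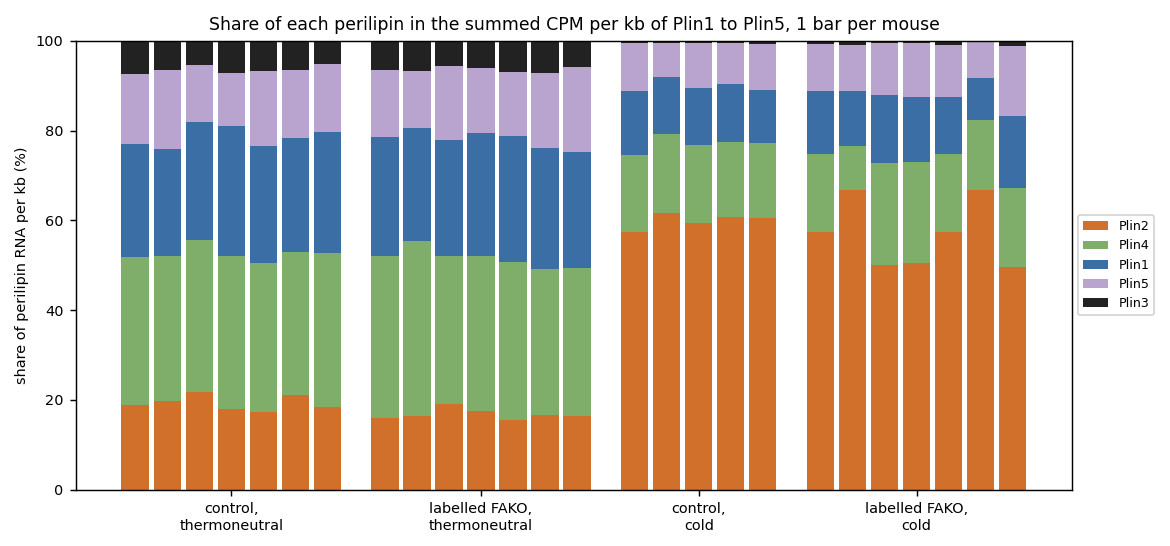
Share (%) of each perilipin in the summed CPM per kb of exons of Plin1 to Plin5, with 1 stacked bar per mouse and mice grouped by label and temperature. Plin2 (orange) fills 15.6% to 21.7% of each thermoneutral bar and 49.7% to 66.8% of each cold bar, and Plin3 (black) shrinks to between 0.345% and 1.08% in the cold.

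Cidea and Cidec are the CIDE genes of brown and white adipocytes, and Cideb is that of hepatocytes. Cidea ran from 959.8 to 1406 CPM (median 1171) in control mice at thermoneutrality, and the 5 control mice in the cold had 1054, 1059, 1201, 1026 and 955. The mice labelled FAKO had 1067 to 1267 (median 1142) at thermoneutrality and 933 to 1514 (median 1099.9) in the cold. The groups overlapped and Cidea did not pass the test, with a log2 fold change of -0.17 (95% interval -0.38 to 0.05, adjusted p = 0.162) in control mice and 0.04 (-0.16 to 0.23, adjusted p = 0.738) in mice labelled FAKO. Per kb of exon it had the highest mean level of the 10 genes in all 4 groups. With the longest transcript or the mean transcript length this held at thermoneutrality, and in the cold Plin2 was higher, at 1430 CPM per kb against 949.9 for Cidea in control mice with the longest transcript. In the cold group labelled FAKO the ranges of Cidea and Plin2 overlapped with exon length too.

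In mice labelled FAKO the log2 fold change of Cidea lay close to 0 and had no stable sign. It was below 0 in 4 of the 9 other settings, 2 of them without another scaling, and in 4 of the 14 fits without 1 mouse (mouse 8, 9, 23 or 24). In control mice it was below 0 in every fit, and with upper-quartile factors it passed the test (-0.27, adjusted p = 0.0229). With library size alone it was -0.28 in both genotypes and passed the test in both, while the median of all genes was -0.14 in control mice and -0.34 in mice labelled FAKO. Relative to that median the value in mice labelled FAKO was higher, not lower.

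Cidec ran from 448 to 1007 CPM (median 513) in control mice at thermoneutrality, and the 5 control mice in the cold had 747, 691, 838, 800.0 and 735. Cidec in mice labelled FAKO ran from 472 to 798 (median 590.3) at thermoneutrality and from 697 to 964 (median 896) in the cold. Control mouse 7 was the highest of all 26 mice for Cidec, and the other 6 thermoneutral control mice, at up to 683, were below all 5 cold control mice. The log2 fold change was 0.33 (SE 0.15, adjusted p = 0.0623) in control mice and 0.53 (SE 0.14, adjusted p = 0.00183) in mice labelled FAKO, where library size alone gave 0.21 (adjusted p = 0.310). Without control mouse 7 Cidec (0.48), Plin4 (0.35) and Cidea (-0.23) also passed in control mice, which took the count from 5 to 8 of 10. Without the 3 mice with the most muscle RNA, a choice made after seeing the data, the counts were 7 in control mice and 7 in mice labelled FAKO.

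Of the summed CPM per kb of Cidea and Cidec, Cidea was 76.6% ± 6.93 (SD, n = 7) in control mice at thermoneutrality, or 79.1% ± 1.81 (SD, n = 6) without mouse 7, which had 61.3%. It was 69.8% ± 1.54 (SD, n = 5) in control mice in the cold. In mice labelled FAKO it was 76.1% ± 2.72 (SD, n = 7) and 69.0% ± 3.61 (SD, n = 7). Cideb was near the limit of detection, with 11 to 45 counts per mouse and 0.642 to 2.18 CPM. It shares 1136 exonic bases with Nop9 on the opposite strand, and the strand setting of the counting is not given in the sources used here. Its counts may thus hold reads of Nop9 or miss reads from the shared bases. Cideb did not pass the test in control mice (log2 fold change 0.00, 95% interval -0.76 to 0.76, adjusted p = 0.999) or in mice labelled FAKO (0.42, -0.15 to 0.99, adjusted p = 0.181).

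Fitm2 is the FITM gene of adipose and most other tissues, and Fitm1 that of skeletal muscle and heart. Fitm2 (ENSMUSG00000048486.6) spans 163466379 to 163472629 of chromosome 2. It ran from 166 to 195 CPM (median 185) in control mice at thermoneutrality, and the 5 control mice in the cold had 456, 454, 454, 479 and 457. Fitm2 in mice labelled FAKO ran from 145 to 199 (median 168) at thermoneutrality and from 428 to 513 (median 492) in the cold. The cold mice were all above the thermoneutral mice, and the spread of the cold control group was the smallest of the 10 genes, with a coefficient of variation of 2.29%. Fitm2 rose 2.55-fold in control mice (log2 fold change 1.35, SE 0.07, adjusted p = 2.87e-15) and 2.78-fold in mice labelled FAKO (1.47, SE 0.06, adjusted p = 1.08e-16). It shares 227 exonic bases with the antisense gene 2310001K24Rik.

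Fitm1 had 0 to 130 counts per mouse and no counts in 3 of 26, where a count of 0 allows up to 0.129, 0.174 and 0.232 CPM in those mice (3 counts, counting error only). It shares 109 exonic bases with the antisense gene Gm15932, so its counts may hold reads of that gene or miss reads from the shared bases. It was highest in labelled FAKO mouse 25 in the cold (7.75 CPM), control mouse 7 at thermoneutrality (5.32) and control mouse 16 in the cold (5.22). These are also the 3 mice with the highest summed level of the 15 skeletal muscle markers, at 9712, 6689 and 6038 CPM. Of the 8 mice highest for Fitm1 and the 8 highest for the muscle markers, 7 were the same. At the other end, the 3 mice without a count of Fitm1 had 12.0, 9.02 and 2.45 CPM of muscle markers. Fitm1 did not pass the test, with log2 fold changes of 0.41 (95% interval -1.72 to 2.54, adjusted p = 0.745) in control mice and 1.23 (-0.79 to 3.25, adjusted p = 0.270) in mice labelled FAKO. All 15 muscle markers were also higher in the cold in both genotypes and none passed, with median log2 fold changes of 0.59 and 1.36, and their part in the values of Fitm1 was not tested.

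**Figure D3:**
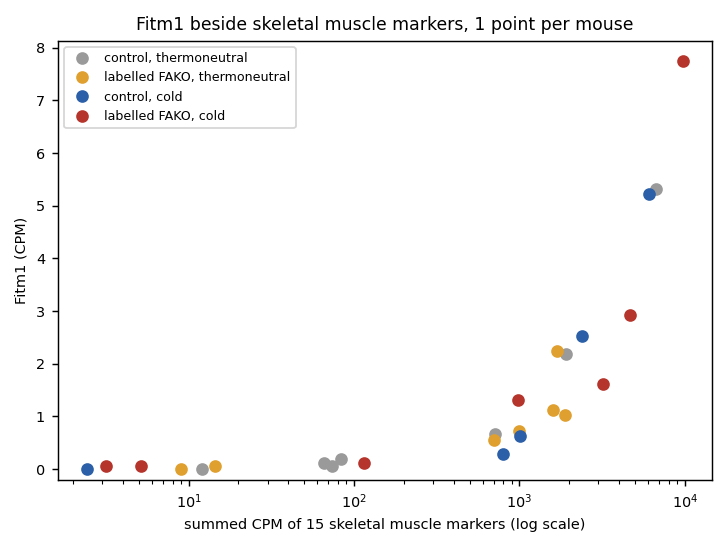
Fitm1 (CPM, linear axis) against the summed CPM of 15 skeletal muscle markers (log axis), 1 point per mouse, coloured by group. The mice with up to 115 CPM of muscle markers have at most 0.193 CPM of Fitm1, and the 3 mice with 6038 to 9712 CPM of muscle markers have 5.22 to 7.75 CPM.

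Groups without overlap were found for 3 of the 10 genes in control mice, Plin2 and Fitm2 higher and Plin3 lower, where 46.4% of all genes tested had groups that did not overlap. Among mice labelled FAKO they were found for 4, these 3 and Plin5, against 40.4% of all genes. The medians over the 10 genes were 0.31 in control mice and 0.47 in mice labelled FAKO, beside -0.01 and -0.03 for all genes tested. With library size alone the medians over the 10 genes were 0.15 in both, beside -0.14 and -0.34 for all genes. In bulk tissue, fewer cells of a type and less RNA per cell cannot be told apart.

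**Figure D4:**
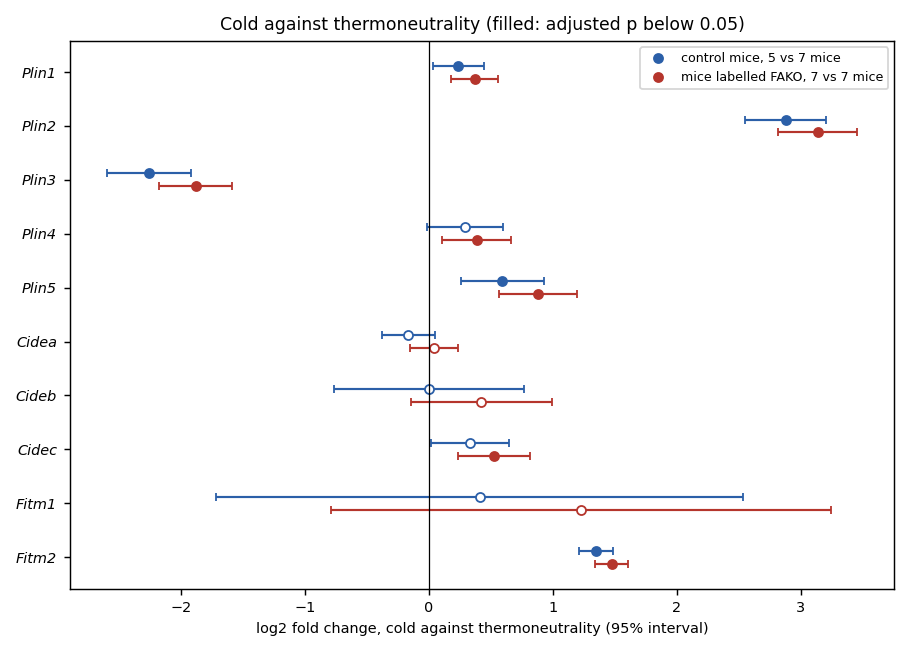
Log2 fold change of the 10 genes in the cold against thermoneutrality, with the 95% interval, in control mice (blue) and mice labelled FAKO (red); filled points have an adjusted p below 0.05. Plin2, Fitm2 and Plin5 lie to the right of 0 and Plin3 to the left in both genotypes, and Fitm1 has the widest intervals.

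Mice labelled FAKO were compared with control mice at each temperature. Afdn itself passed the test at neither temperature. In the cold its groups did not overlap, at 53.3 to 65.3 CPM in mice labelled FAKO and 67.9 to 79.2 in control mice. Of all genes tested, 1.11% had groups without overlap in that comparison. The comparisons thus describe the label, and not a loss of Afadin RNA that passed the test. For the protein, the paper reports that its increase in the cold was reduced in FAKO mice. A supplementary figure of the paper also compares the protein between FAKO and control BAT at thermoneutrality, without values in the text. At thermoneutrality 0 of the 10 genes passed the test of edgeR, where 0.081% of all genes tested passed. That share rests on control mouse 7, since 14 genes were called with it and 93 of 17193 without it. None of the 10 had an unadjusted p below 0.05, where 7.65% of all genes did, and DESeq2's Wald test also called 0. The log2 fold changes of mice labelled FAKO against control mice ran from -0.62 for Fitm1 to 0.08 for Plin4, and Fitm1 was 0.61 without control mouse 7. For the genes that moved most in the cold they were -0.18 (95% interval -0.47 to 0.12) for Plin2, 0.03 (-0.25 to 0.31) for Plin3 and -0.07 (-0.20 to 0.06) for Fitm2. These intervals still allow a difference of up to 0.47 on the log2 scale for Plin2.

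In the cold 0 of the 10 genes passed as well, where 0.139% of all genes tested passed and DESeq2's Wald test called 0 of the 10. Plin3 (log2 fold change 0.41, 95% interval 0.09 to 0.73, adjusted p = 0.250) and Plin5 (0.36, 0.01 to 0.70, adjusted p = 0.354) had an unadjusted p below 0.05, where 13.4% of all genes did. The cold mice labelled FAKO with the highest Plin3 were mice 23, 28 and 26, at 49.6, 48.6 and 41.7 CPM, all above the highest cold control mouse at 30.8. The other 4 ran from 24.1 to 30.5 and lay among the control mice. For Plin5, mice 22 and 26, at 272 and 300.1 CPM, lay among the control mice and the other 5 of the 7 mice labelled FAKO above the highest control mouse, at 301.

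All 10 log2 fold changes in the cold were above 0 in mice labelled FAKO against control mice, with a median of 0.19 beside 0.02 for all genes tested. They were above 0 with every scaling tried, and without 1 mouse the sign changed for Plin2 (mouse 27 left out, -0.05) and for Fitm1 (mouse 17, 18, 19 or 25 left out, down to -0.81). Plin2 in the cold differed by 0.08 (95% interval -0.24 to 0.40), and mouse 27, at 4327 CPM, and mouse 23, at 3513, were the only cold mice labelled FAKO above the 5 control mice. The comparisons in the cold and the cold responses of each genotype use the same mice, so these signs are not separate evidence. Macrophage, neutrophil and red blood cell markers were likewise all higher in the cold group labelled FAKO, 10 of 10, 6 of 6 and 5 of 5. Skeletal muscle markers were higher for 13 of 15, brown adipocyte markers for 6 of 10, adipocyte markers for 3 of 6 and endothelial markers for 2 of 6. None of these markers passed the test, and their part was not tested.

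The difference between the cold responses of the genotypes was tested as an interaction, and 0 of the 10 genes passed, where 1.16% of all genes tested passed and DESeq2's Wald test called 0 of the 10. Over all genes 200 were called, and 371 without control mouse 7. None of the 10 had an unadjusted p below 0.05, where 16.2% of all genes did. The largest difference outside Fitm1 and Cideb was that of Plin3, at 0.38 (95% interval -0.05 to 0.80, adjusted p = 0.376), and that of Plin2 was 0.26 (-0.18 to 0.69, adjusted p = 0.586). All 10 were above 0 with TMM factors (median 0.23, beside 0.04 for all genes), but with library size alone those of Plin1, Plin4, Cidea and Fitm2 were below 0, and without the 3 mice with the most muscle RNA those of Plin4, Cidec and Fitm1 were. That of Fitm1 was also below 0 without control mouse 7 (-0.40) or labelled FAKO mouse 25 (-0.19), and that of Plin4 without mouse 24 (-0.0054).

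**Figure D5:**
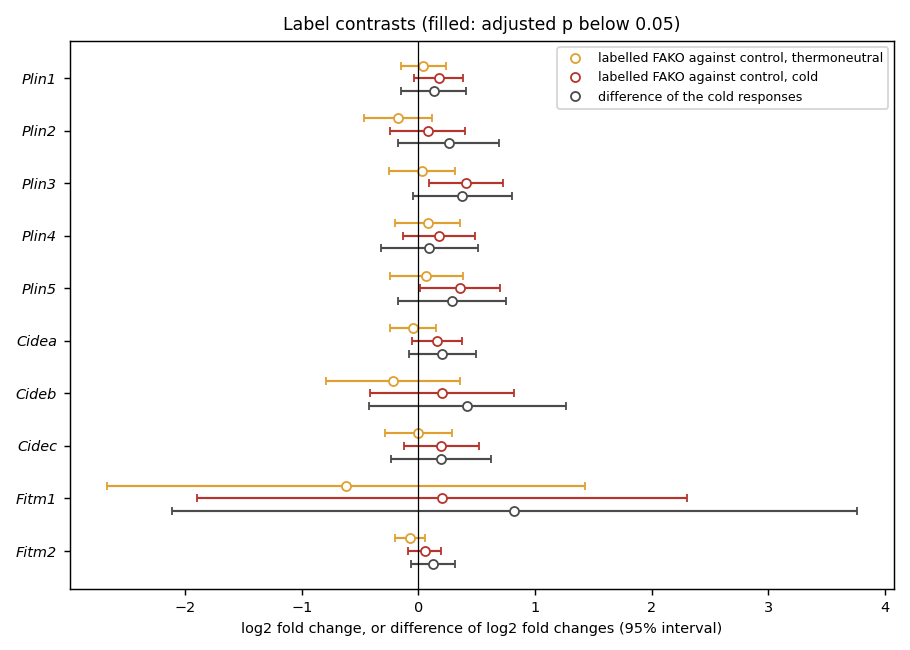
Log2 fold change of the 10 genes in mice labelled FAKO against control mice at thermoneutrality (orange) and in the cold (red), and the difference of the cold responses (grey), with 95% intervals; open points did not pass an adjusted p of 0.05. No point is filled, the red points lie right of 0, and only the red intervals of Plin3 and Plin5 leave out 0.

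Other genes that act on the droplet moved in both directions. Of the 25 genes on a list for droplet formation and surface, 24 were tested and in control mice 13 rose and 9 fell in the cold, and in mice labelled FAKO 13 rose and 10 fell. Over all genes, as above, 65% passed in control mice and 68.6% in mice labelled FAKO, with about as many higher as lower. Dgat2, which makes triglyceride, fell in control mice by 3.07 on the log2 scale (SE 0.16, adjusted p = 7.33e-15). Mettl7a1, a droplet-associated methyltransferase-like protein, fell by 1.85 (SE 0.14, adjusted p = 1.11e-11), and Rmdn3, a tether between organelles, rose by 1.28 (SE 0.09, adjusted p = 3.61e-12). The median log2 fold change of the list was 0.19 in control mice.

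Of the 10 lipases and their partners, 3 rose and 5 fell in control mice and 2 rose and 3 fell in mice labelled FAKO, beside 65% and 68.6% of all genes. In control mice Abhd5, the lipase activator that perilipin 1 holds, rose by 1.98 on the log2 scale (SE 0.10, adjusted p = 5.62e-15). Pnpla3 fell by 2.74 (SE 0.26, adjusted p = 7.99e-10), and Lipe, which encodes hormone-sensitive lipase, fell by 1.08 (SE 0.11, adjusted p = 2.32e-09).

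Among 16 nuclear regulators of lipid genes, 8 rose and 6 fell in control mice and 7 rose and 7 fell in mice labelled FAKO, beside the same 65% and 68.6%. Ppargc1a, a coactivator induced by cold, rose by 4.07 on the log2 scale (SE 0.21, adjusted p = 5.21e-15), Esrrb rose by 1.86 (SE 0.21, adjusted p = 1.02e-08) and Cebpa fell by 2.33 (SE 0.09, adjusted p = 4.15e-17). Esrrb had a low mean level over all mice, 1.90 CPM, beside 278 for Ppargc1a and 225 for Cebpa. Cebpa was the only gene of the 3 lists past the threshold in a comparison of the labels, with a smaller fall in mice labelled FAKO (interaction 0.47, SE 0.12, adjusted p = 0.0428). With library size alone, and also without a filter, 0 genes were called higher for the interaction, so Cebpa was not called higher in either.

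The pattern over the 26 mice was compared between genes by the root-mean-square distance of log2 CPM, each gene centred on its own mean, over 14245 genes. The distance is not scaled by the spread of a gene, so genes that change little lie close together whatever their pattern. A small distance is therefore not evidence of shared regulation. Among the 10 genes the closest pair was Plin1 and Cidec, at 0.181, followed by Plin1 and Plin4, at 0.196. Plin2 and Plin3 were the pair of perilipins farthest apart, at 2.56. Over all genes, the nearest to Plin2 was Acot2 (0.256), to Plin3 Vav2 (0.199), to Plin5 Atad3a (0.199) and to Fitm2 Eif4g2 (0.0949). The nearest to Plin1 (0.127) and to Cidec (0.158) was the same gene, Lpcat3. Chd7 was nearest to Plin4 (0.165), Lactb2 to Cidea (0.104) and Rny1 to Cideb (0.351). Cideb was near the limit of detection, so counting noise limits what its nearest gene can mean. The nearest to Fitm1 was Tpm2 (0.411), which encodes a tropomyosin of muscle.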

How the data were processed

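RNA-sequencing of BAT from 26 mice was used, with groups taken from the sample labels. Stranded libraries of rRNA-depleted RNA were sequenced from a single end. The deposited values are raw counts, made by the authors with STAR 2.5.2b (mm10) and featureCounts 1.5.2 on GENCODE M13. The strand setting of the counting is not given in the sources used here.

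Symbols and coordinates were taken from GENCODE M21, and promoters from RefSeq (GRCm38.p6). Genes kept by filterByExpr (17286) were fitted in R 4.3.3 with edgeR 4.0.16 (legacy quasi-likelihood, TMM factors, 1 term per group, all 26 mice). Contrasts were tested with glmQLFTest, and p-values adjusted by Benjamini-Hochberg over all genes, with a threshold of 0.05. Log2 CPM had a prior count of 2. Levels between genes were compared as CPM per kb of the union of exons. All 73 pairs of mice within groups differed by more than sampling noise (lowest chi-square per gene 4.92). The edgeR fit and its contrasts were tested on simulated counts in which few genes changed, unlike in the cold comparisons. Depth per mouse limits genes with few counts, here Cideb and Fitm1.

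The 10 genes and all lists were chosen with earlier results of these data known. All 10 are named, with Afdn and, of 3 lists, the 3 genes with the largest change in the cold in control mice among those past the threshold, at 1 CPM or more and with groups that do not overlap, and any past the threshold between labels. For likeness, the nearest gene to each of the 10 is named. Alternatives were other scalings, DESeq2 1.42.0, the revised quasi-likelihood method, other filters, fits to the groups compared, other gene lengths and leaving out mice.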

Additional observations from a re-analysis of the deposited data

Results flagged for a closer look

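In the 40 groups of CPM values (10 genes in 4 groups), 6 had a highest mouse that stood apart from the rest by Dixon's test, where chance alone gives about 1 in 20, and the 6 come from 4 mice. Control mouse 18 in the cold had 3002 CPM of Plin2, beside 2552 to 2672 in the other 4, and 1447 CPM of Plin4, beside 1189 to 1245. Control mouse 7 at thermoneutrality had 1007 CPM of Cidec, beside 448 to 683 in the other 6, and 5.32 CPM of Fitm1, beside 0 to 2.18. Labelled FAKO mouse 25 in the cold had 7.75 CPM of Fitm1, beside 0.0562 to 2.92. Control mouse 19 in the cold had 479 CPM of Fitm2, beside 454 to 457. Without mouse 18 the log2 fold change of Plin2 in control mice was still past the threshold, as in every fit without 1 mouse (2.81 to 2.92).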

How the results depend on the processing

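Plin2, Fitm2 and Plin5 stayed called higher and Plin3 lower in the cold in both genotypes in every alternative run. No paired analysis was possible because the sample labels give no pairing of the mice. Controls were littermates, but the litter of each mouse is not in the labels, so litter was not modelled. Most alternatives changed 1 choice, but DESeq2's Wald test also changed the size factors and the genes tested (34761), and the fits to fewer mice were filtered anew. The cause of a change was not tested. All 10 genes passed the filter, so the separate test of genes below it, and its other prior count, gave no value, and the fit to only the groups compared was not run for the interaction. Depth limits Cideb and Fitm1 most.

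In the cold, Plin1 in mice labelled FAKO lost its call with library size alone, Cidec did too, and Plin4 did there, with upper-quartile factors and in the fit to only the groups compared. Cidea in mice labelled FAKO was -0.28 with library size alone, -0.12 with upper-quartile factors, -0.026 with at least 10 counts in every mouse and -0.0031 in the fit to only the groups compared. Cideb in control mice was 0.0068 with the revised quasi-likelihood method. At thermoneutrality, Cidec in mice labelled FAKO against control mice was -0.0021 with DESeq2 size factors and -0.0055 with DESeq2's Wald test, and with library size alone Cidea was 0.11 and Fitm2 0.069. For the interaction with library size alone, Plin1 was -0.046, Plin4 -0.11, Cidea -0.0021 and Fitm2 -0.069. Without the 3 mice with the most muscle RNA, Fitm1 was 0.60 at thermoneutrality and, for the interaction, Plin4 was -0.051, Cidec -0.0034 and Fitm1 -0.39.

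Over all genes, the calls at thermoneutrality went from 14 to 34 with library size alone (34 higher, 0 lower), 42 with DESeq2's Wald test, 9 without a filter and 91 without the 3 muscle-rich mice. The calls in the cold went from 24 to 5 with library size alone, 191 with DESeq2, 15 without a filter, 45 with at least 10 counts in every mouse and 9 in the fit to only the groups compared. The interaction went from 200 to 500 with DESeq2 and 27 without a filter, and with library size alone its 278 calls were all lower, against 50 higher and 150 lower.

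Without 1 mouse, the genes called between labels ran from 7 (without mouse 2) to 93 (7) at thermoneutrality, from 7 (19) to 100 (22) in the cold and from 49 (8) to 371 (7) for the interaction. They moved by over 1.5 times without mouse 2, 3, 6, 7 or 13 at thermoneutrality and 17, 18, 19, 21, 22, 24, 25 or 27 in the cold. For the interaction they did without mouse 2, 4, 6, 7, 8, 10, 11, 16, 17, 18, 19, 21, 22 or 24. Of the 10 genes, 4 to 8 were called in the cold in control mice and 6 to 7 in mice labelled FAKO, and 0 between labels in each fit. The log2 fold changes that changed sign ran from -0.037 to 0.088 for Cidea in mice labelled FAKO in the cold and from -0.26 to 0.14 for Cideb in control mice. At thermoneutrality they ran from -0.062 to 0.19 for Cidec, -0.019 to 0.077 for Plin3, -0.026 to 0.16 for Plin5 and -1.09 to 0.61 (without control mouse 7) for Fitm1. In the cold they ran from -0.049 to 0.14 for Plin2 and -0.81 to 1.22 for Fitm1 between labels. Fitm1 ran from -0.60 to 1.59 for cold in control mice and from -0.40 to 1.84 for the interaction, and Plin4 from -0.0054 to 0.19 for the interaction.

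With the longest transcript in place of exon length, 19 of the 28 mean shares of family RNA moved by more than their SD, and with the mean transcript length 26 of 28.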
